A study of Mus musculus with 38 samples.

Results

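The genes described here are 10 members of the heat shock chaperone families of the cytosol, the endoplasmic reticulum (ER) and the mitochondrion, out of 22443 mouse genes with a coding transcript in the count tables. They were listed by name, with earlier results of these data known, and no threshold on a measured value was used. Hspa1a, Hspa1b, Hspa8, Hspa5 and Hspa9 encode chaperones of the HSP70 family, Hsp90aa1, Hsp90ab1 and Hsp90b1 those of the HSP90 family, Hsph1 an HSP110 protein and Dnajb1 an HSP40 protein. Ribosome-protected mRNA fragments (footprints) were counted by PL-Ribo-seq, which joins biotin proximity labelling with ribosome profiling, in 38 libraries of 14 groups. The cells were primary cortical neurons of embryonic CD-1 mice in which a doxycycline-inducible lentivirus expressed a biotin ligase. This was either TurboID-PSD95, whose transcript has PSD95 elements that send it into dendrites, or Pan-TurboID, which lacks a localization signal.

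An input library (all footprints) and a streptavidin pulldown library (footprints of biotinylated ribosome complexes) were made from every culture. The KCl experiment held 24 libraries, with 3 replicates of input and pulldown for each ligase, at rest or after 55 mM KCl for 1 h, which depolarizes the membrane. In the DHPG experiment, 6 TurboID-PSD95 libraries, 3 of each fraction, followed 10 min of 100 µM DHPG, which activates mGluR1 and mGluR5. Knockdown cultures gave 8 libraries with TurboID-PSD95, 2 in each group, and all received 20 nM siRNA against the initiation factor eIF4G2 for 72 h, at rest or after KCl. All 14 groups shared cycloheximide for 2 min and biotin labelling, and the study's methods place the cycloheximide before the biotin. They also state that neurons were silenced with tetrodotoxin and DL-AP5 before KCl or DHPG. Biotin labelling followed in fresh medium after the stimulus. A resting group without siRNA was made only in the KCl experiment, and libraries with a control siRNA were not analysed here, so that DHPG or knockdown and the experiment cannot be told apart. Each library came from several pooled dishes.

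HSP70 chaperones bind exposed hydrophobic stretches of unfolded proteins, J-domain proteins such as DNAJB1 stimulate their ATPase, and HSP110 proteins such as HSPH1 exchange their nucleotide. HSP90 chaperones act later and finish the folding of kinases, steroid receptors and other clients. Hspa8 (HSC70) and Hsp90ab1 are abundant in unstressed cells, where HSC70 also uncoats clathrin vesicles at synapses, while Hspa1a, Hspa1b and Dnajb1 are known targets of heat shock factor 1. Hspa5 (BiP) and Hsp90b1 (GRP94) serve the ER lumen and are classical targets of the unfolded protein response. Hspa9 (mortalin) folds and imports proteins in mitochondria.

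Promoter stretches are shown for the 3 members in which an element of the ER stress response or of the heat shock response was found, since the members are known targets of one or the other. Promoters in RefSeq (GRCm38.p6; 250 bases before to 50 after each start) were listed for 6 of the 10 members, 8 promoters in all. The ER stress element was searched on both strands as CCAAT followed by CCACG with 9 bases of any kind between them. The heat shock element was searched on both strands as 3 alternating GAA and TTC blocks in either order, each 2 bases of any kind apart. Capitals mark the match, 5′ to 3′ on the gene's strand.
Hspa5 (chr2:34772020-34772049, plus strand, beginning 65 bases before the start): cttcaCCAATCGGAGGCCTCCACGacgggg
Hsp90b1 (chr10:86705632-86705661, minus strand, beginning 212 bases before the start): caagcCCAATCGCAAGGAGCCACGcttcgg
Hsp90b1 (chr10:86705527-86705556, minus strand, beginning 107 bases before the start, reverse orientation): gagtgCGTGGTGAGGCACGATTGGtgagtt
Hsph1 (chr5:149636287-149636316, minus strand, 36 bases after the start): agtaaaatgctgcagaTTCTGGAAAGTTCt

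The ER stress element was found in 39 of 32851 promoters (0.119%), those of Hspa5 and Hsp90b1 among them. The heat shock element was found in 198 (0.603%), and among the members' promoters only in both of Hsph1. No match in a window says only that these letters are not in it. The coding sequence (CDS) of Hspa5 lies in mm10 at chr2:34772322-34776113 in 8 segments, that of Hsp90b1 at chr10:86691102-86705355 in 18 segments and that of Hsph1 at chr5:149617507-149636076 in 18 segments. Hspa1a (chr17:34970000-34971925) and Hspa1b (chr17:34957079-34959007) each have 1 coding segment and lie beside each other on the minus strand.

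The copies of these genes set how well a footprint can be placed. Every 28-nt stretch of the CDS of Hspa5, Hsp90b1, Hsph1 and Dnajb1 occurred once in the genome (100%). In Hspa9 and Hsp90ab1, 75.9% and 73.3% of stretches were unique. For Hspa1a and Hspa1b the unique part was 8.06% and 10.6%, and 89.5% of the stretches of Hspa1a were also present in Hspa1b, so that both are given as a sum as well. Hsp90aa1 had 7.97% and Hspa8 2.90% unique stretches, and 79.0% of those of Hspa8 occurred in over 3 places. How reads with several places were treated is not stated, so the levels of these 4 genes are uncertain.

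Total counts ranged from 5906281 to 35643247 per library, and counts in coding sequences, the depth used here, from 2047327 to 14637214. Levels are counts per 1000000 counts in coding sequences (CPM). Behind a level stood 17 to 366 counts for Hspa1a, 58 to 1893 for Dnajb1 and at least 182 counts for each of the other members. All 10 members passed the filter on low counts. The activity marker genes set KCl inputs apart, with Fos at 2046 to 2971 CPM after KCl and 180 to 465 at rest. Eif4g2 was at 284 to 338 CPM in the 4 knockdown inputs and at 445 to 811 in the 15 other inputs. All 8 neuronal markers were detected in these cultures, with a summed level of 5281 to 10893 CPM. Astrocyte markers (6 of 6 detected) summed to 282 to 726 CPM in the 6 resting inputs and 289 to 773 in the 6 KCl inputs. Oligodendrocyte lineage markers (6 of 6 detected) summed to 114 to 295 and 78.6 to 211 CPM in these inputs. Microglial markers (6 of 6 detected) stayed at or below a sum of 20.1 CPM in every library. Mean levels over all libraries were below 1 CPM for Cx3cr1, Csf1r, P2ry12 and Tmem119 of microglia, S100b of astrocytes and Mog of oligodendrocytes.

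In resting inputs Hspa8 was the most densely occupied member and Hspa1a the least. On the scale of CPM per kilobase of CDS, the mean level over 6 resting inputs was 2039 for Hspa8, 994 for Hsp90ab1, 751 for Hspa5, 358 for Hsp90b1 and 311 for Hsp90aa1. The remaining levels per kilobase were 179 for Hspa9, 108 for Hsph1, 106 for Dnajb1, 67.1 for Hspa1b and 11.7 for Hspa1a. The constitutive Hspa8 and Hsp90ab1 thus had more footprints per length than the inducible Hspa1a, Hspa1b and Dnajb1, with the reservation above for Hspa8, Hspa1a and Hspa1b.

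**Figure D1:**
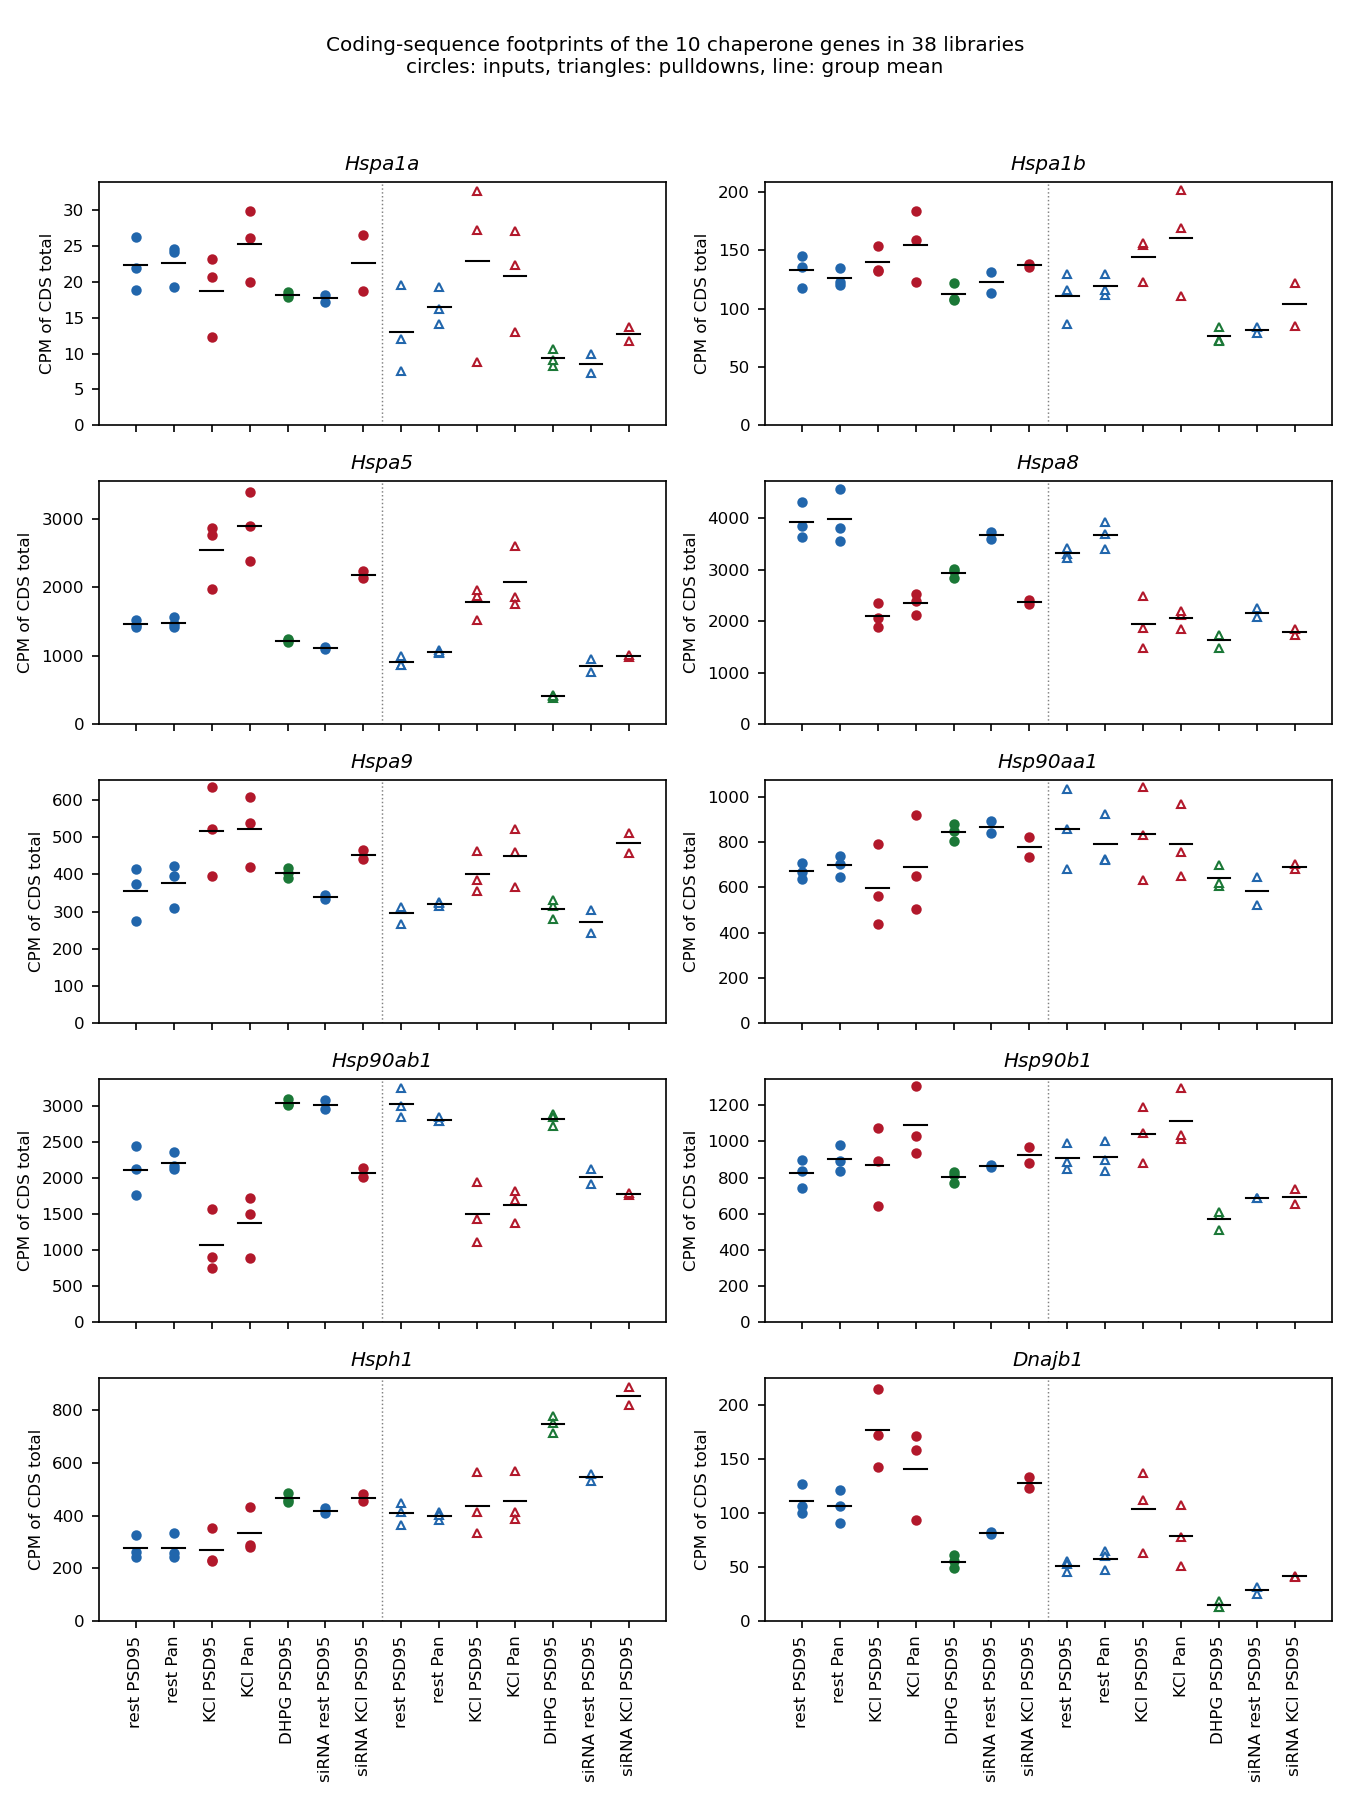
Level of each of the 10 chaperone genes (y axis, CPM, linear from 0) in the 14 groups (x axis). Each point is 1 library, circles stand for inputs, open triangles for pulldowns and lines for group means. Hspa5 is highest in KCl inputs and lowest in DHPG pulldowns, mean levels of Hspa8 and Hsp90ab1 are lower in each KCl group than in its resting group, and Hsph1 is highest in pulldowns of the knockdown after KCl.

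The members differed in how far their levels moved over the 14 groups. Between the groups with the highest and the lowest mean the level differed 11.9-fold for Dnajb1, 7.09-fold for Hspa5, 3.15-fold for Hsph1, 2.84-fold for Hsp90ab1 and 2.43-fold for Hspa8. For the other members this ratio was 1.49 (Hsp90aa1), 1.91 (Hspa9), 1.96 (Hsp90b1), 2.10 (Hspa1b) and 2.94 (Hspa1a). When the groups were put in order of level, most neighbours had overlapping libraries, in 8 of 13 pairs for Hspa5, in 10 for Hspa8, Hsp90ab1, Hsph1 and Dnajb1, in 11 for Hsp90b1, in 12 for Hspa1a, Hspa1b and Hspa9 and in all 13 for Hsp90aa1. Among the 45 pairs of members, the highest correlations of the 14 group means on the log2 scale were those of Hspa5 with Dnajb1 (Pearson's r = 0.93), of Hspa1a with Hspa1b (0.93), which share most of their sequence, and of Hspa1b with Hsp90b1 (0.92). The lowest was that of Hsph1 with Dnajb1 (-0.78). These points share experiments and depth, and the correlations are a description.

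After KCl depolarization, 5 of the 10 members were called in the inputs. Hspa5 of the ER, Hspa9 of mitochondria and the HSP40 gene Dnajb1 rose, whereas the constitutive cytosolic genes Hspa8 and Hsp90ab1 fell. The inducible genes Hspa1a and Hspa1b, and Hsp90aa1, Hsp90b1 and Hsph1, did not pass the test. Of all 13004 genes tested, 8.22% were called higher and 7.63% lower at a false discovery rate (FDR) of 0.05, against 3 and 2 of the 10 members. Footprint counts do not tell more mRNA from more ribosomes per mRNA, nor fewer cells of a type from less RNA per cell. Neuronal markers summed to 6608 to 8119 CPM after KCl and 8474 to 9338 at rest in TurboID-PSD95 inputs, with no overlap, and to 7422 to 10893 and 8746 to 9374 in Pan-TurboID inputs. Their part in these values was not tested.

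Hspa5 had a lowest, median and highest level of 1423, 1463 and 1565 CPM in the 6 resting inputs and of 1977, 2825 and 3403 CPM in the 6 KCl inputs. Every KCl input lay above every resting one. The log2 fold change was 0.96 (SE 0.129, FDR 7.05e-06 by edgeR's quasi-likelihood test), a 1.95-fold rise, and it passed the test in each ligase's inputs alone and without any 1 replicate. Hsp90b1, its partner in the ER lumen, had levels of 741, 863 and 979 CPM at rest and 642, 985 and 1305 CPM after KCl. These ranges overlapped, and the log2 fold change was 0.27 (SE 0.145, FDR 0.215), or -0.013 without replicate 1.

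Hspa8 had a lowest, median and highest level of 3564, 3827 and 4567 CPM at rest and of 1883, 2243 and 2533 CPM after KCl. All KCl inputs lay below all resting ones (log2 fold change -0.74, SE 0.125, FDR 0.000149). Without replicate 3 it was -0.64 and missed the threshold (FDR 0.0569). Hsp90ab1, the constitutive HSP90, had levels of 1768, 2144 and 2450 CPM at rest and 748, 1205 and 1717 CPM after KCl. Its ranges were apart as well (log2 fold change -0.74, SE 0.189, FDR 0.00826), and the call was lost without replicate 2 (FDR 0.175), without replicate 3 (FDR 0.141) and in either ligase's inputs alone.

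Hspa9 had levels of 275, 386 and 424 CPM at rest and 395, 530 and 634 CPM after KCl, and the ranges overlapped (log2 fold change 0.59, SE 0.158, FDR 0.0107). Its rise missed the threshold without replicate 1 (0.24, FDR 0.289) or 3 (0.57, FDR 0.194). Dnajb1 had 90.7, 106 and 127 CPM at rest and 93.5, 165 and 215 CPM after KCl (0.62, SE 0.18, FDR 0.0175), and missed it without replicate 2 (FDR 0.116) or 3 (FDR 0.341). Neither passed in the inputs of 1 ligase alone.

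Hspa1a and Hspa1b, whose proteins are the stress-inducible HSP70, had a summed level of 140, 149 and 172 CPM at rest and 143, 165 and 210 CPM after KCl. The ranges overlapped, with the highest KCl input above the resting range, and the log2 fold change of the sum was 0.19 (SE 0.143, FDR 0.413). In the fit with the sum, TMM took another library as its reference, and the median gene stood 0.053 lower on the log2 scale than in the fit of single genes. Values of the single genes were 0.05 (FDR 0.929) for Hspa1a and 0.27 (FDR 0.19) for Hspa1b. Hsp90aa1, the inducible cytosolic HSP90, stood at 0.01 (SE 0.178, FDR 0.981) and Hsph1 at 0.21 (SE 0.172, FDR 0.445). Without replicate 1 these were -0.35 for Hsp90aa1, -0.0030 for Hsph1 and -0.13 for Hspa1a. Scaling to CDS totals alone turned the small differences of Hspa1a (-0.07) and Hsp90aa1 (-0.13) in sign. No call of a member in any comparison of 2 groups changed direction under that scaling.

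In pulldowns Hspa5 rose and Hspa8 fell after KCl with either ligase. Of all genes, 3.21% were called higher and 3.37% lower after KCl in TurboID-PSD95 pulldowns, and 4 members were called. Hspa5 had 873, 997 and 865 CPM in the 3 resting pulldowns and 1528, 1881 and 1966 after KCl (log2 fold change 0.98, SE 0.183, FDR 0.00135). Dnajb1 had 45.7, 55.4 and 53.2 CPM at rest and 62.7, 137 and 112 after KCl (1.03, SE 0.261, FDR 0.0171). Both genes had higher levels in each KCl library than in any resting one.

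In these pulldowns Hspa8 had 3301, 3227 and 3424 CPM at rest and 1488, 2493 and 1860 after KCl (-0.76, SE 0.177, FDR 0.00941). Hsp90ab1 had 3004, 3246 and 2843 CPM at rest and 1950, 1106 and 1431 after KCl (-0.99, SE 0.268, FDR 0.0244). The libraries of both genes were apart, with all KCl values on the low side. None of the 4 calls held without replicate 3, where FDR values were 0.146 for Hspa5, 0.232 for Hspa8, 0.209 for Hsp90ab1 and 0.221 for Dnajb1. Without replicate 2, Hspa5 was the only one of the 4 that held. Neuronal markers moved with this comparison, with a summed level of 6393 to 7225 CPM after KCl and 7952 to 8783 at rest, and their part in these values was not tested. With Pan-TurboID these ranges overlapped (7864 to 9791 and 9285 to 9713 CPM).

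With Pan-TurboID, 1.9% of genes were called higher and 3.15% lower after KCl, and 2 members were called. Hspa5 had 1041, 1084 and 1061 CPM in resting pulldowns and 1866, 1753 and 2613 after KCl (1.02, SE 0.183, FDR 0.000954). Hspa8 had 3413, 3696 and 3935 CPM at rest and 2114, 2202 and 1851 after KCl (-0.78, SE 0.177, FDR 0.00903). All KCl libraries stood apart from all resting ones in both genes. Without replicate 3 neither call held (FDR 0.201 and 0.398), nor did that of Hspa8 without replicate 2 (FDR 0.118). Hsp90ab1 had a log2 fold change of -0.72 (FDR 0.126), which passed with the replicate number as a block (-0.75, FDR 0.0455).

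**Figure D2:**
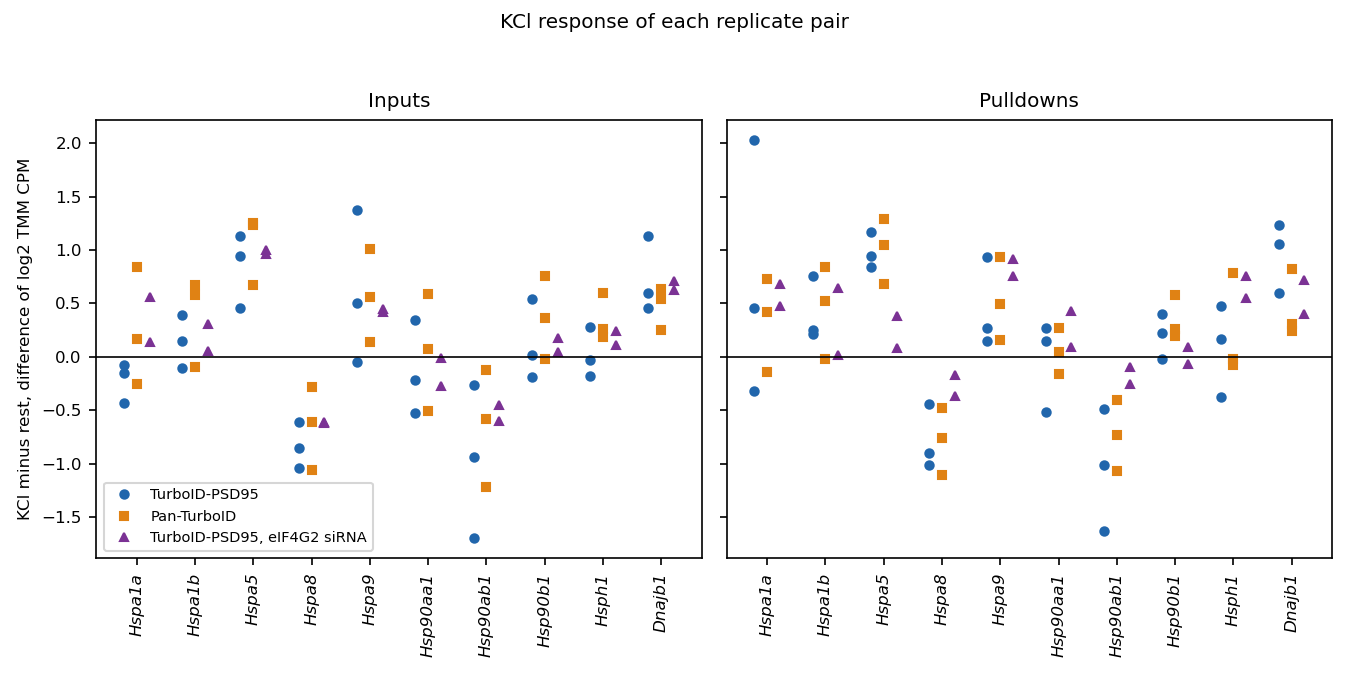
KCl response of the 10 chaperone genes in each of 8 replicate pairs (y axis, KCl minus rest, difference of log2 CPM after TMM scaling) in inputs and pulldowns. Symbols give the ligase and the siRNA. Hspa5 and Dnajb1 lie above 0 and Hspa8 and Hsp90ab1 below 0 in 8 of 8 pairs of both fractions.

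Same-numbered cultures, which were processed together, gave 8 pairs of rest and KCl, 3 for each ligase and 2 under knockdown. Same-numbered pairs of the 2 ligases may belong to 1 biological replicate, so the 8 pairs may not be independent. Hspa5 was higher after KCl in 8 of 8 inputs (differences of 0.46 to 1.25 on the log2 scale) and in 8 of 8 pulldowns (0.08 to 1.29). Dnajb1 was higher in 8 of 8 inputs (0.25 to 1.13) and pulldowns (0.24 to 1.24), and Hspa9 in 7 of 8 inputs and 8 of 8 pulldowns. Hspa8 was lower in all 8 inputs (-1.06 to -0.28) and pulldowns (-1.10 to -0.17), as was Hsp90ab1 (inputs -1.70 to -0.13, pulldowns -1.63 to -0.09). Hsp90aa1 was higher in 3 of 8 inputs and 6 of 8 pulldowns. The sum of Hspa1a and Hspa1b was higher in 6 of 8 inputs (-0.12 to 0.62) and in 8 of 8 pulldowns (0.05 to 0.91). In the test over the groups without siRNA the sum did not pass in pulldowns, at 0.46 (SE 0.204, FDR 0.178) with TurboID-PSD95 and 0.48 (SE 0.202, FDR 0.194) with Pan-TurboID. Hspa1a alone stood at 0.90 (FDR 0.158) and 0.41 (FDR 0.598), and Hspa1b at 0.40 (FDR 0.241) and 0.48 (FDR 0.169). The 0.90 of Hspa1a rested largely on replicate 2, with pair differences of -0.32, 2.03 and 0.46 in replicates 1 to 3.

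The response to KCl was also compared between fractions and ligases. The difference of the KCl effect between TurboID-PSD95 pulldowns and the inputs of both ligases passed the test for none of 13004 genes (0.0%). Of these genes, 334 had an unadjusted p under 0.05. For Hspa5 this difference was 0.02 (SE 0.222) and for Hspa8 -0.02 (SE 0.216). The enrichment in TurboID-PSD95 against Pan-TurboID pulldowns differed for 1 gene (0.00769%), which was no member, and for Hspa5 it was -0.12 (SE 0.181).

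Genes around the members were read from lists of relatives and cofactors. Of 73 tested genes in 7 chaperone lists, 14 were called higher and 3 lower in KCl inputs, beside the shares of 8.22% and 7.63% over all genes. Of 20 genes for ER folding and the unfolded protein response 7 rose and 1 fell, with a median log2 fold change of 0.22 beside 0.04 over all genes. The genes that rose included Herpud1, which takes part in degradation of ER proteins (1.49, FDR 6.86e-08), the transcription factor gene Atf4 (1.74, FDR 1.86e-05) and the BiP cofactor Dnajb9 (1.04, FDR 0.00035). Canx, the lectin chaperone calnexin, fell (-0.38, FDR 0.0212). The other 12 ER genes were not called. Among them were Hyou1 (-0.02, FDR 0.932) and Pdia4 (-0.02, FDR 0.945), which were chosen after their values were seen.

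Of 8 mitochondrial chaperone genes, 3 rose with Hspa9, namely the nucleotide exchange factor Grpel1 (0.60), the mitochondrial HSP90 Trap1 (0.53) and the protease Lonp1 (0.94). In other lists, 1 of 16 HSP40 and HSP70 cofactors rose (Bag2, 0.59) and 1 of 9 HSP90 cofactors fell (the immunophilin Fkbp4, -0.74). Of 7 HSP70 relatives 2 rose (Hspa14, 0.50, and Hspa13, 0.42). In the chaperonin TRiC 1 of 8 subunits rose (Cct6a, 0.36) and 1 fell (Cct2, -0.42), and none of 5 small heat shock protein and heat shock factor genes passed. In TurboID-PSD95 pulldowns 4 and in Pan-TurboID pulldowns 5 of the 20 ER genes rose, beside 3.21% and 1.9% of all genes. Herpud1 (1.30 and 1.59), Dnajb9 (1.22 and 1.52) and Atf4 (1.97 and 1.57) rose in both. None of the 8 mitochondrial chaperone genes and none of the 7 HSP70 relatives was called in either pulldown.

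The position of footprints within the CDS was compared between KCl and resting inputs, as a description. Few stretches of Hspa8 and Hsp90aa1 are unique in the genome, so the placement of footprints along them is uncertain. After KCl the mean level of Hspa5 in inputs was higher in all 8 coding segments, by 0.73 to 1.10 on the log2 scale. In Hspa8 the first segment was higher (0.35) and the 7 others were lower, from -0.38 to -1.31. Hsp90ab1 showed the same layout, 0.64 in the first and -0.09 to -1.58 in the 9 others. In Hsp90aa1, whose whole CDS did not pass, the first 2 segments were higher (1.07 and 0.42) and the fourth was the lowest (-0.87). Dnajb1 went from 1.01 through 0.44 to -0.23 over its 3 segments, and Hsph1 was highest in the first (0.96) with -0.36 to 0.39 in the later ones used.

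**Figure D3:**
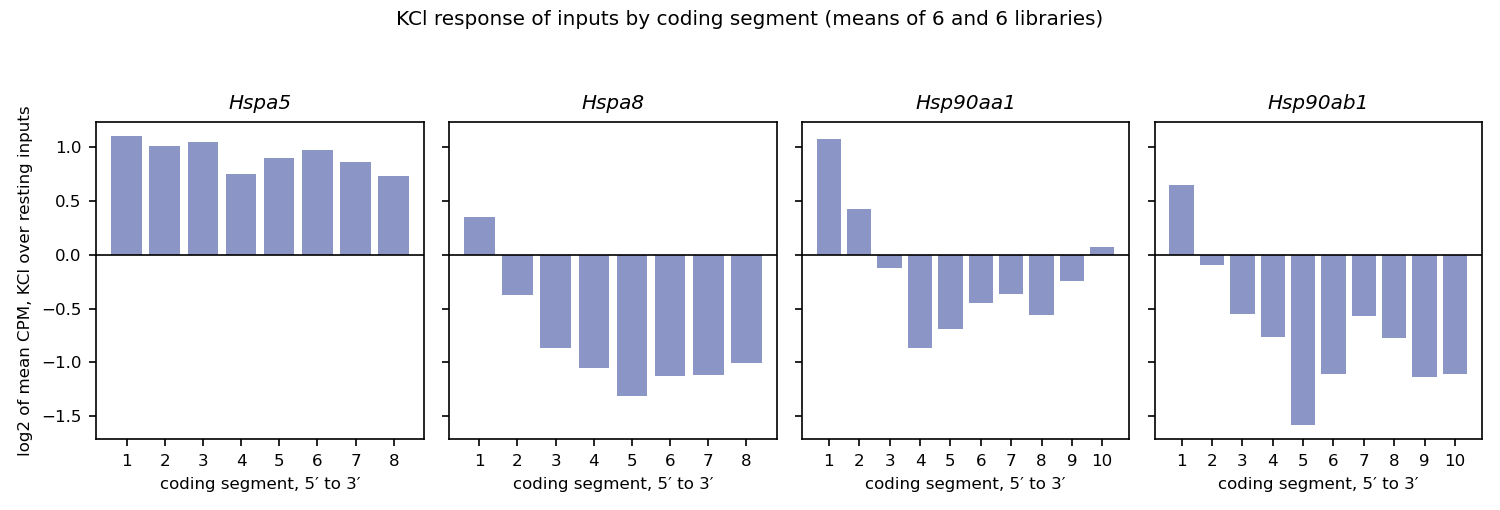
KCl response along the coding sequence of Hspa5, Hspa8, Hsp90aa1 and Hsp90ab1 (x axis, coding segment from 5′ to 3′; y axis, log2 ratio of mean CPM over 6 KCl and 6 resting inputs). Bars of Hspa5 lie between 0.73 and 1.10, while in the other 3 genes the first bar is above 0 and most later bars are below 0. Placement of footprints is uncertain in Hspa8 and Hsp90aa1, which have few unique stretches.

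The share of a gene's CDS counts that lay in the first segment is a measure added after these values were seen, and it was not tested. In Hspa8 it was 8.06% ± 0.728 (SD, n = 6) in resting and 18.4% ± 6.29 in KCl inputs, in Hsp90aa1 6.40% ± 0.89 and 15.4% ± 5.92, and in Dnajb1 29.8% ± 3.37 and 41.0% ± 3.42. In these 3 of 8 members with several segments every KCl input lay above every resting input, as it did in 3.23% of 8602 genes with enough counts. The reservation on the placement of footprints holds for Hspa8 and Hsp90aa1 here too. In Hsp90ab1 the share was 4.21% ± 0.626 and 13.8% ± 8.99 with overlap, and in Hspa5 4.40% ± 0.72 and 5.20% ± 0.948. Within the 6 same-numbered pairs the share was higher after KCl in 6 of 6 for Hspa8, Hsp90aa1, Dnajb1, Hsp90ab1, Hspa9 and Hsph1, and in 4 of 6 for Hspa5 and Hsp90b1. Knockdown inputs had 2 libraries a group. After KCl their mean share was higher by 15.8 percentage points in Dnajb1, 5.58 in Hspa9 and 5.08 in Hspa8. The rise was 2.96 in Hsp90ab1, 2.33 in Hsp90aa1, 1.67 in Hsp90b1 and 0.94 in Hspa5, and Hsph1 differed by -0.56. Over the 8602 genes the median difference was 2.85 in knockdown inputs. In the KCl experiment it was 2.09 percentage points and 69.3% of these genes were higher. Cycloheximide was given before harvest in all groups, and its part in these positions was not tested.

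Footprints in 5′ UTRs, where ribosomes on upstream reading frames and those at the start codon both fall, were tested as well. In KCl inputs 0.521% of 10174 genes and in TurboID-PSD95 pulldowns 0.285% were called for 5′ UTR counts, and 0 of the 9 members tested. Hspa1a was not tested for its low 5′ UTR counts. For Hspa5 the 5′ UTR level was 185 to 348 CPM at rest and 351 to 704 after KCl (log2 fold change 1.07, SE 0.349, unadjusted p 0.00299, FDR 0.251). With the replicate number as a block, Hspa5 (1.10, FDR 0.00355) and Hsp90b1 (0.84, FDR 0.0482) passed. Without the block Hsp90b1 had a log2 fold change of 0.82 (SE 0.332). Over the settings, 44 to 173 of all genes were called for 5′ UTR counts in KCl inputs. The median 5′ UTR log2 fold change over all genes was 0.23 in inputs and 0.65 in TurboID-PSD95 pulldowns. Over the 9 members it was 0.38 and 0.74.

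As a share of 5′ UTR and CDS counts together, 5′ UTR counts made up 1.89% ± 0.598 (SD, n = 6) in resting and 2.89% ± 0.607 in KCl inputs for Hspa8 (two-sided exact permutation test, p = 0.0195). For Hsp90ab1 they made up 7.29% ± 2.27 and 15.0% ± 7.57 (exact p = 0.0303). These p-values are unadjusted, shares of 10 genes were tested, and neither result was stable. With any 1 replicate left out the exact p was 0.0286 to 0.114 for Hspa8 and 0.0286 to 0.229 for Hsp90ab1. By an exact test over the 6 same-numbered pairs p was 0.0625 for Hspa8 and 0.03125, the smallest that 6 pairs allow, for Hsp90ab1. The 6 pairs are 3 replicate numbers with 2 ligases each. Pairs of the same number may not be independent, so both kinds of exact p may be too small. For Hspa5 the shares were 14.6% ± 3.11 and 15.9% ± 3.85 (exact p = 0.524). The median share over 10174 genes was 20.1% to 27.1% in resting and 19.5% to 30.8% in KCl inputs.

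In the comparison of pulldown with input, Dnajb1 and Hspa5 were depleted and Hsph1 was enriched. Of all genes 16.6% were higher and 15.0% lower in resting TurboID-PSD95 pulldowns than in resting inputs, against 1 and 2 of the members. Dnajb1 fell to 45.7, 55.4 and 53.2 CPM from 90.7 to 127 CPM in the 6 inputs (log2 fold change -1.004, SE 0.234, FDR 0.00306). Hspa5 fell to 873, 997 and 865 CPM from 1423 to 1565 CPM (-0.62, SE 0.162, FDR 0.00612). Hsph1 had 448, 413 and 363 CPM against 241 to 332 CPM (0.63, SE 0.206, FDR 0.0216). No pulldown value of these 3 genes overlapped with the inputs. Hsph1 was at 0.30 and no longer called (FDR 0.237) with the trend over CDS length removed. All 3 calls were lost without replicate 3 (FDR 0.123 for Hspa5, 0.203 for Hsph1, 0.088 for Dnajb1), and that of Hsph1 also without replicate 2 (FDR 0.156). Hsp90ab1 had 0.56 (FDR 0.057), and passed with the replicate number as a block (0.57, FDR 0.025).

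After KCl 10.9% of genes were higher and 7.56% lower in these pulldowns, and Hspa5 alone among the members was called (-0.60, SE 0.161, FDR 0.0137), a call lost without replicate 1 (FDR 0.176) or 3 (FDR 0.264). Dnajb1 (-0.60, FDR 0.062) and Hsph1 (0.54, FDR 0.0639) passed with the block (-0.62, FDR 0.00732, and 0.54, FDR 0.0108). With Pan-TurboID 5.21% of genes were higher and 4.38% lower at rest, 4.71% and 4.24% after KCl. Dnajb1 was the member called there, at rest (-0.81, SE 0.256, FDR 0.0459) and after KCl (-0.82, SE 0.256, FDR 0.045). Neither call held without replicate 2 (FDR 0.194 and 0.251) or 3 (FDR 0.328 and 0.253), or with the trend over CDS length removed (-0.71, FDR 0.0693, and -0.66, FDR 0.0873). Hsph1 at rest (0.60, FDR 0.1) passed with the block (0.64, FDR 0.016).

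In DHPG cultures Hspa5 and Dnajb1 were again lower and Hsph1 higher in the pulldown. In these pulldowns 40.4% of genes were higher and 39.3% lower than in the inputs, and 9 of 10 members were called, 1 higher and 8 lower. Hspa5 had 1196, 1232 and 1239 CPM in inputs and 384, 426 and 417 in pulldowns (-1.37, SE 0.0551, FDR 3.48e-13). Dnajb1 had 61.0, 55.4 and 48.9 CPM in inputs and 13.3, 18.1 and 13.0 in pulldowns (-1.69, SE 0.13, FDR 1.11e-09). Hsph1 had 451, 486 and 460 CPM in inputs and 779, 753 and 712 in pulldowns (0.89, SE 0.0582, FDR 1.12e-10). Replicates lay close together here, with a chi-square per gene of 1.48 to 1.90 between DHPG inputs and 2.83 to 8.88 between DHPG pulldowns. For KCl replicates it was 8.62 to 47.5. The fit took its spread from these 6 DHPG libraries alone, so its FDR values cannot be ranked against those for KCl.

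Hspa8 fell as well, from 2838, 2969 and 3022 CPM to 1707, 1732 and 1484 (-0.63, SE 0.0594, FDR 1.63e-08). Decreases were also called for Hspa1a (-0.74), Hspa1b (-0.34), Hsp90b1 (-0.29), Hsp90aa1 (-0.19) and Hspa9 (-0.18). Hsp90ab1 was not called (0.10, FDR 0.0582), its difference by CDS totals alone was -0.11, and with the trend over CDS length removed it was called lower (-0.303, FDR 1.99e-05). Oligodendrocyte lineage markers summed to 8.56 to 10.2 CPM in these pulldowns and 19.4 to 24.7 in inputs, and neuronal markers to 9285 to 9629 and 9636 to 9727, and their part was not tested. TMM scaling shifted every gene by 0.21 on the log2 scale in this comparison relative to CDS totals. The shift was 0.24 for DHPG over resting pulldowns, 0.10 for the inputs of that comparison, 0.11 and 0.10 for knockdown pulldowns over inputs at rest and after KCl, and under 0.1 in the other comparisons of 2 groups.

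Under knockdown 22.1% of genes were higher and 23.4% lower in resting pulldowns than in inputs, and 24.0% and 24.8% after KCl. At rest 9 members were called, Hsph1 higher (0.49, SE 0.0851, FDR 3.98e-05, but 0.16, FDR 0.159, with the trend over CDS length removed) and 8 lower, with Dnajb1 (-1.38, SE 0.18, FDR 7.32e-07), Hspa8 (-0.65) and Hsp90ab1 (-0.47) among them. Hspa9 did not pass (-0.19, FDR 0.144). Of the 8 lower calls, that of Hsp90b1 was lost with the likelihood ratio test (FDR 0.0525), DESeq2 (0.0746) and RLE factors (0.0642), and that of Hspa1a with DESeq2 (0.0811). After KCl 5 were called, Hsph1 higher (0.97, SE 0.0867, FDR 9.88e-10), Hspa5 (-1.03), Dnajb1 (-1.53), Hspa8 (-0.31) and Hsp90b1 (-0.31) lower. With either knockdown replicate left out, 1 library was left in each group and the spread was taken from the libraries without siRNA. Such fits could not test these calls. At rest the log2 fold change without knockdown replicate 1 or 2 was -0.12 or -0.49 for Hspa5 and -1.63 or -1.25 for Dnajb1. For Hsph1 it was 0.54 or 0.40. Neuronal markers summed to 7111 to 7116 CPM in pulldowns and 8733 to 8839 in inputs at rest, and to 5281 to 5433 and 6830 to 7020 after KCl. Oligodendrocyte lineage markers summed to 40.4 to 50.8 and 62.4 to 65.7 at rest, and to 24.9 to 30.2 and 54.1 to 55.7 after KCl, and microglial markers to 5.55 to 9.05 and 9.75 to 10.4, and then 9.87 to 9.93 and 11.7 to 20.1. Their part in the members' values was not tested. Chi-square per gene between replicates was 8.62 to 47.5 in the KCl experiment and 2.81 to 4.65 in the knockdown.

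**Figure D4:**
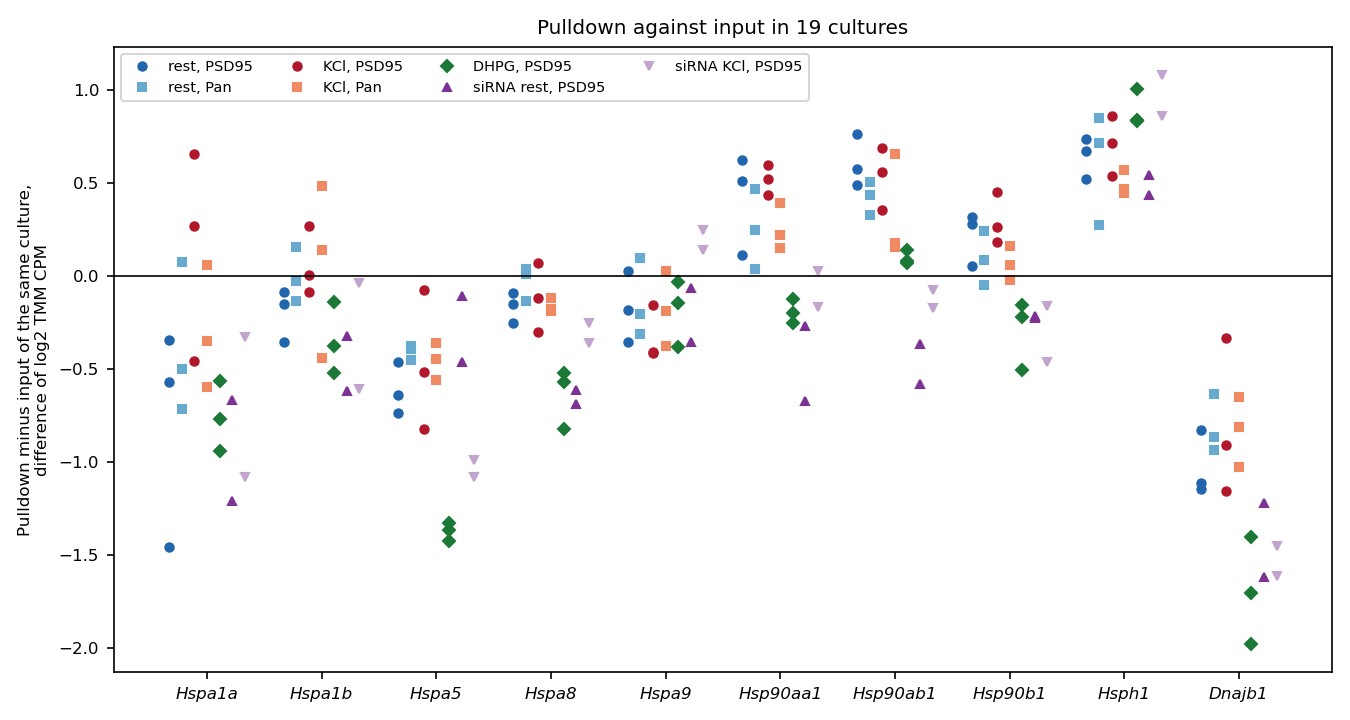
Pulldown minus input of the same culture (y axis, difference of log2 CPM after TMM scaling) for the 10 chaperone genes in 19 cultures, with symbols for condition and ligase. Hsph1 lies above 0 and Hspa5 and Dnajb1 below 0 in 19 of 19 cultures.

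Culture by culture, Hsph1 was higher in the pulldown in 19 of 19, by 0.28 to 1.08 on the log2 scale. Hspa5 was lower in 19 of 19 (-1.43 to -0.08) and Dnajb1 in 19 of 19 (-1.98 to -0.33). Hsp90ab1 was higher in 15 of 19, Hsp90aa1 in 13 and Hsp90b1 in 10, while Hspa8 was higher in 3. These counts differed by experiment. Hsp90ab1 was higher in every culture of the KCl and DHPG experiments and lower in every knockdown culture. Hsp90aa1 was higher in every culture of the KCl experiment, and lower in every DHPG and most knockdown cultures. Hsp90b1 was higher only in cultures of the KCl experiment. The length of the coding sequence moved with these differences. Over all genes tested, its rank correlation with the log2 fold change of pulldown over input was 0.50 to 0.62 in the 7 comparisons, as a description. Dnajb1 has the shortest CDS of the members (1023 nt), Hsph1 the longest (2577 nt), and the median of all genes tested was 1389 nt.

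With the trend over length removed, Dnajb1 (-0.89, FDR 0.00316) and Hspa5 (-0.83, FDR 0.00127) were still called in resting TurboID-PSD95 pulldowns, and Hspa1a passed as well (-0.98, FDR 0.0392). Hsph1, not called there or in resting knockdown pulldowns, was called in DHPG pulldowns (0.37, FDR 1.28e-05) and knockdown pulldowns after KCl (0.55, FDR 1.91e-05). Hspa5 in DHPG pulldowns was at -1.70 (FDR 6.45e-14) with the trend removed.

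Cofactor genes were read in resting TurboID-PSD95 pulldowns, where 16.6% of all genes were higher and 15.0% lower than in inputs. The trend over CDS length was not removed for these lists. Its rank correlation with the fold change over all genes was 0.52 here, and its part in the lists' values was not tested. Of 16 HSP40 and HSP70 cofactors 8 fell and 1 rose. Those that fell included St13 (-0.93), Dnajc7 (-0.80) and Dnaja1 (-0.90), and the one that rose was Dnajc6, auxilin (0.42). Of 9 HSP90 cofactors 4 fell, with Stip1, which joins HSP70 to HSP90, at -0.99 and Fkbp4 at -0.84. Of 20 ER genes 7 fell, with the disulfide isomerases Pdia3 (-0.94) and Pdia4 (-0.83), and 1 rose (Ern1, 1.12). Among 7 HSP70 relatives 4 rose, the HSP110 gene Hspa4 (0.52) among them, and the TRiC subunit genes Tcp1 (0.83) and Cct3 (0.74) rose. The medians were -0.62 for HSP40 and HSP70 cofactors, -0.55 for HSP90 cofactors, -0.45 for ER genes and 0.52 for HSP70 relatives, beside 0.01 over all genes. Of 8 mitochondrial chaperone genes 4 fell, among them the nucleotide exchange factor Grpel1 (-0.87) and the chaperonin genes Hspe1 (-1.04) and Hspd1 (-0.49), and Trap1 rose (1.13). The median was -0.87 for mitochondrial chaperones, -0.66 for small heat shock protein and heat shock factor genes, none of which passed, and 0.20 for TRiC. With TurboID-PSD95 after KCl, where 7.56% of all genes were lower, 3 of 16 HSP40 and HSP70 cofactors (median -0.50) and 2 of 9 HSP90 cofactors (median -0.57) fell. With Pan-TurboID 3 of 16 (median -0.58) and 1 of 9 (median -0.54) fell at rest, where 4.38% of all genes were lower. After KCl, with 4.24% lower, 4 of 16 (median -0.58) and 3 of 9 (median -0.66) fell. With DHPG, where 39.3% of all genes were lower, 12 of 15 and 8 of 9 fell. Under knockdown, with 23.4% of all genes lower at rest and 24.8% after KCl, 11 and 10 of 16 and 7 and 6 of 9 fell.

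DHPG libraries were set against resting TurboID-PSD95 libraries of the KCl experiment. In inputs 16.3% of genes were higher and 16.5% lower, and 5 members were called. Hsph1 had 451, 486 and 460 CPM with DHPG and 327, 262 and 241 at rest (0.85, SE 0.11, FDR 2.75e-05). Hsp90ab1 had 3011, 3027 and 3100 CPM with DHPG and 2118, 2450 and 1768 at rest (0.63, SE 0.111, FDR 0.000461). Dnajb1 had 61.0, 55.4 and 48.9 CPM with DHPG and 106, 127 and 99.9 at rest (-0.91, SE 0.157, FDR 0.000387). In each of the 3 genes the DHPG inputs were apart from the resting ones, as were those of Hsp90aa1 (0.44, FDR 0.00953) and Hspa8 (-0.32, FDR 0.013).

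The fall of Hspa8 in DHPG inputs missed the threshold when any 1 DHPG replicate was left out (FDR 0.0682 to 0.133). Hspa5 was not called in inputs (-0.16, FDR 0.205). In pulldowns 21.8% of genes were higher and 26.0% lower with DHPG, with Hsph1 higher (1.11, FDR 9.79e-07) and Dnajb1 (-1.56, FDR 2.5e-06), Hspa5 (-0.92, FDR 1.65e-06), Hspa8 (-0.78, FDR 4.5e-06) and Hsp90b1 (-0.44, FDR 0.00151) lower. Of the 4 activity marker genes 1 was called higher and 3 lower with DHPG in inputs (median log2 fold change -1.96), with Fos at 37.6 to 41.4 CPM against 184 to 465 at rest, and likewise 1 and 3 in pulldowns (-2.06). Glial markers moved with this comparison: astrocyte markers summed to 80.8 to 85.4 CPM in DHPG inputs against 287 to 726 in the resting TurboID-PSD95 inputs, and oligodendrocyte lineage markers to 19.4 to 24.7 against 114 to 295. Neuronal markers summed to 9636 to 9727 CPM against 8474 to 9338. In pulldowns the sums were 78.2 to 87.1 against 296 to 886 CPM for astrocyte, 8.56 to 10.2 against 54.2 to 252 for oligodendrocyte lineage and 9285 to 9629 against 7952 to 8783 for neuronal markers. Their part in the members' values was not tested.

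Knockdown of eIF4G2 was set against libraries without siRNA. In resting inputs 3.89% of genes and none of the members were called, although Hsph1 had an unadjusted p of 0.0108 (0.62, FDR 0.132). In KCl inputs 3.17% of genes were higher and 2.12% lower. Hsp90ab1 had 2140 and 2011 CPM with siRNA and 1564, 748 and 906 without (0.97, SE 0.26, FDR 0.029), and Hsph1 had 456 and 481 CPM with siRNA and 352, 229 and 232 without (0.82, SE 0.226, FDR 0.0346). The libraries did not overlap in either gene. Both calls were lost without untreated replicate 3 (FDR 0.133 for Hsp90ab1, 0.142 for Hsph1), and that of Hsph1 also without untreated replicate 2 (0.0572). Without knockdown replicate 1 or 2, 1 knockdown library was left in each group, which could not test these calls. The log2 fold change was then 0.87 or 1.02 for Hsp90ab1 and 0.80 or 0.77 for Hsph1. Markers of glia moved with this comparison. Astrocyte markers summed to 652 to 672 CPM with siRNA and 289 to 433 without, oligodendrocyte lineage markers to 54.1 to 55.7 and 78.6 to 138, and microglial markers to 11.7 to 20.1 and 1.28 to 5.74, and their part was not tested. In resting pulldowns, with 4.17% higher and 4.95% lower over all genes, Hspa8 was called (2254 and 2075 CPM against 3301, 3227 and 3424, log2 fold change -0.57, FDR 0.0498). This call lay at the threshold and was lost with the likelihood ratio test (FDR 0.0529), RLE factors (0.0624), no filter (0.108) and without untreated replicate 3 (0.214). Without knockdown replicate 1 or 2, which left 1 knockdown library in each group, the log2 fold change was -0.61 or -0.49. Neuronal markers summed to 7111 to 7116 CPM in these knockdown pulldowns and 7952 to 8783 without siRNA, oligodendrocyte lineage markers to 40.4 to 50.8 and 54.2 to 252, and microglial markers to 5.55 to 9.05 and 1.04 to 2.93, and their part was not tested.

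In KCl pulldowns 7.97% of genes were higher and 10.9% lower with siRNA. Hsph1 had 889 and 820 CPM with siRNA and 564, 334 and 413 without (1.02, SE 0.225, FDR 0.00349). Hspa5 had 979 and 1012 CPM against 1528, 1881 and 1966 (-0.78, SE 0.192, FDR 0.00724), and Dnajb1 41.6 and 40.9 against 62.7, 137 and 112 (-1.27, SE 0.265, FDR 0.0024). Hsph1 was thus the higher one and Hspa5 and Dnajb1 the lower ones, with no overlap in any of the 3. Without knockdown replicate 1 or 2, 1 knockdown library was left in each group, which could not test these 3 calls. The log2 fold change was then 0.95 or 1.08 for Hsph1, -0.77 or -0.81 for Hspa5 and -1.29 or -1.25 for Dnajb1. All 4 marker lists were apart here. Astrocyte markers summed to 579 to 793 CPM in the knockdown KCl pulldowns and 373 to 549 in those without siRNA, neuronal markers to 5281 to 5433 and 6393 to 7225, oligodendrocyte lineage markers to 24.9 to 30.2 and 51.3 to 118, and microglial markers to 9.87 to 9.93 and at most 2.73. Their part in these values was not tested.

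Within the knockdown, KCl was compared with rest in the same experiment. In inputs 8.91% of genes were higher and 10.4% lower, and 5 members were called. Hspa5 had 1136 and 1105 CPM at rest and 2238 and 2137 after KCl (0.98, SE 0.0846, FDR 3.52e-09), and Hspa8 had 3743 and 3602 at rest and 2407 and 2343 after KCl (-0.62, SE 0.0676, FDR 2.16e-07). Hsp90ab1 (-0.53), Hspa9 (0.43) and Dnajb1 (0.67) were called too. Without knockdown replicate 1 or 2, 1 library was left in each group, which could not test these calls. The log2 fold change was then 0.955 or 0.963 for Hspa5 and -0.616 or -0.654 for Hspa8. For Hsp90ab1 it was -0.609 or -0.485, for Hspa9 0.413 or 0.415 and for Dnajb1 0.705 or 0.598. Neuronal markers summed to 6830 to 7020 CPM after KCl and 8733 to 8839 at rest in these inputs, astrocyte markers to 652 to 672 and 489 to 505, oligodendrocyte lineage markers to 54.1 to 55.7 and 62.4 to 65.7, and microglial markers to 11.7 to 20.1 and 9.75 to 10.4. The part of these markers was not tested. The difference of the KCl effect in inputs with and without siRNA passed for 1 of 13181 genes (0.00759%) and for no member, with 0.18 (SE 0.264) for Hspa5 and 0.28 (SE 0.251) for Hspa8.

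In knockdown pulldowns 22.2% of genes and 3 of the members were called after KCl. Hspa9 had 304 and 242 CPM at rest and 510 and 457 after KCl (0.82, SE 0.106, FDR 2.19e-06), Hsph1 had 532 and 557 and then 889 and 820 (0.66, SE 0.0858, FDR 2.75e-06), and Hspa8 had 2254 and 2075 and then 1730 and 1850 (-0.27, SE 0.0681, FDR 0.00471). Hspa5 was at 761 and 952 CPM at rest and 979 and 1012 after KCl (0.22, SE 0.086, FDR 0.0621). The libraries of Hspa5 did not overlap, and its log2 fold change was 0.98 in the inputs. Without knockdown replicate 1 or 2, 1 library was left in each group, which could not test the 3 calls. The log2 fold change was then 0.92 or 0.73 for Hspa9, 0.56 or 0.72 for Hsph1 and -0.17 or -0.40 for Hspa8. In these pulldowns neuronal markers summed to 5281 to 5433 CPM after KCl and 7111 to 7116 at rest, astrocyte markers to 579 to 793 and 417 to 523, oligodendrocyte lineage markers to 24.9 to 30.2 and 40.4 to 50.8, and microglial markers to 9.87 to 9.93 and 5.55 to 9.05, and their part was not tested.

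The difference between fractions was tested as an interaction, added after the values were seen. Over all genes 1.51% were higher and 2.27% lower in pulldowns than in inputs in their KCl effect, and Hspa5 was among them (-0.75, SE 0.12, FDR 0.000297), with Hsph1 (0.48, FDR 0.0214), Hspa8 (0.34, FDR 0.041) and Hsp90ab1 (0.35, FDR 0.0472) on the other side. Hspa8 and Hsp90ab1 were lost with the likelihood ratio test (FDR 0.0977 and 0.102), RLE factors (0.0564 and 0.0599) and the length trend removed (0.140 and 0.163), and Hsph1 with the length trend removed (0.0892). Without knockdown replicate 1 or 2, 1 library was left in each group, which could not test these calls. The interaction was then -0.87 or -0.62 for Hspa5 and 0.33 or 0.64 for Hsph1. For Hspa8 it was 0.45 or 0.25 and for Hsp90ab1 0.52 or 0.20. The KCl effect in pulldowns with siRNA against that without it passed for 0.448% of genes and for no member, and for Hspa5 it was -0.73 (SE 0.265, unadjusted p 0.0107, FDR 0.348).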

How the data were processed

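Per the file headers and the study's methods, the authors trimmed reads with Rfastp, demultiplexed them with fastq-multx, cut off molecular identifiers, aligned to mm10 with Rsubread and counted footprint 5′ ends per exon segment with plastid. The deposited counts are raw whole numbers. Alignment names in the headers mark removal of rRNA and duplicate reads. No offset to the decoded codon was applied, and strand use and the treatment of reads with several places are not stated. The 10 members, the gene lists and the markers were chosen with earlier results of these data known. Nothing in the labels says that replicates are separate animals, so p-values measure the spread between these cultures.

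CDS and 5′ UTR counts of the longest transcript per gene were used. Of 67238 coding transcripts, 66750 (99.3%) were named through GENCODE vM21, and 488 were left out. For all members the longest transcript was also the one with the most counts. Tests were edgeR 4.0.16 quasi-likelihood tests (robust, TMM, filterByExpr) in R 4.3.3 with Benjamini-Hochberg adjustment over all genes. SE values were derived as the log2 fold change over the root of F. The study's methods name edgeR's likelihood ratio test, run as an alternative with DESeq2 1.42.0, RLE factors, no filter, the replicate block, summed Hspa1a and Hspa1b, removal of the CDS length trend and leaving out replicates. Fits held 24 libraries (KCl), 6 (DHPG), 8 (knockdown), 12 (DHPG against rest) and 20 (knockdown against none).

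Groups follow the titles. For DHPG and knockdown libraries the descriptions say cytosol while the virus field says PSD95-TurboID, which was used. Biotin labelling is 30 min in the labels, with a shorter time for DHPG in the study's text. Same numbers pair samples within an experiment, since input and pulldown come from 1 culture and resting and activated cultures were processed together. Correlations of same-numbered deviations ran from -0.19 to 0.48 (84 pairs, KCl), -0.08 to 0.03 (3 pairs, DHPG) and -0.02 to 0.02 (12 pairs, knockdown). Replicates differed by more than sampling noise (chi-square per gene 1.48 to 47.5). In simulated data for KCl inputs (13004 genes, 200 of them changed), 54.5% of 2-fold and 87.9% of 4-fold changes were recovered and 3.4% of calls were false. In the data 2061 genes were called in this comparison, so the rates may differ there. Lists named at most 3 genes per direction, those with the smallest p among genes that passed with all replicates in 1 direction. Hyou1 and Pdia4 in KCl inputs were chosen after their values were seen.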

Additional observations from a re-analysis of the deposited data

Results flagged for a closer look

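In the knockdown experiment the KCl effect differed between pulldowns and inputs for 4 members, by an interaction test added after the values were seen (edgeR's quasi-likelihood test). The difference of the log2 KCl effect, pulldown minus input, was -0.754 for Hspa5 (FDR 0.000297), 0.344 for Hspa8 (FDR 0.041), 0.349 for Hsp90ab1 (FDR 0.0472) and 0.483 for Hsph1 (FDR 0.0214). For Hspa5 this came with a KCl effect of 0.98 in inputs and 0.22 in pulldowns, and both knockdown cultures had the same direction in each of the 4 genes. Without knockdown replicate 1 or 2, 1 library was left in each group, which could not test these calls. The difference was then -0.868 or -0.616 for Hspa5, 0.450 or 0.254 for Hspa8, 0.518 or 0.198 for Hsp90ab1 and 0.326 or 0.644 for Hsph1. Hspa8 and Hsp90ab1 were also lost with the likelihood ratio test (FDR 0.0977 and 0.102), RLE factors (0.0564 and 0.0599) and the length trend removed (0.140 and 0.163), and Hsph1 with the length trend removed (0.0892). Without siRNA the nearest interaction set TurboID-PSD95 pulldowns against the inputs of both ligases, not against those of TurboID-PSD95 alone. It is thus not the same measure, and no member passed it. The values were 0.02 for Hspa5 (SE 0.222), -0.02 for Hspa8 (SE 0.216), -0.26 for Hsp90ab1 (SE 0.325) and -0.09 for Hsph1 (SE 0.298). For each of the 10 members, the level and the 5′ UTR share in the 6 resting and the 6 KCl inputs were examined for a library far from the others, 40 sets of values in all, and none had one.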

How the results depend on the processing

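Of 68 calls of a member in a comparison, recomputed 719 times under the alternatives, 596 were kept, 123 were lost and 0 reversed, and 98 of the losses came from leaving out replicates. Losses without a knockdown replicate came from fits with 1 library in each knockdown group, which could not test the calls. Members called in KCl inputs fell from 5 to 2 in either ligase's inputs alone. TurboID-PSD95 pulldowns over inputs after KCl had 3 with DESeq2 and 3 with the replicate block, in place of 1. Pan-TurboID pulldowns over inputs had 2 with the block at rest, 0 with the length trend removed at rest or after KCl, and 0 with Hspa1a and Hspa1b summed after KCl. Knockdown pulldowns over inputs after KCl had 9 with the length trend removed in place of 5. KCl in knockdown pulldowns had 5 with RLE factors and 5 with no filter in place of 3. Knockdown over none in resting pulldowns had 2 with DESeq2, 0 with RLE factors and 0 with no filter in place of 1. 5′ UTR counts in KCl inputs had 2 with the replicate block in place of 0. The added interaction had 2 with the likelihood ratio test, 2 with RLE factors and 1 with the length trend removed in place of 4. The number of all genes called moved too, from 493 to 2549 for KCl in inputs. It ran from 1382 to 3353 for TurboID-PSD95 pulldowns over inputs after KCl. With Pan-TurboID it ran from 388 to 2457 at rest and 338 to 2464 after KCl. It ran from 4275 to 6475 for knockdown pulldowns over inputs after KCl and 2393 to 3287 for KCl in knockdown pulldowns. Knockdown over none in resting pulldowns had 1174 to 1606 and the added interaction 396 to 681. The cause was not tested. The replicate block changed no call of a member other than those given with the results above. Hsp90ab1 in DHPG pulldowns over inputs turned from 0.10 to -0.303 (FDR 1.99e-05) with the length trend removed.

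With 1 replicate left out, members called ranged from 1 to 4 for KCl in inputs, 0 to 4 in TurboID-PSD95 and 0 to 3 in Pan-TurboID pulldowns. For pulldown over input they ranged from 0 to 3 (TurboID-PSD95, rest), 0 to 1 (TurboID-PSD95, KCl), 0 to 2 (Pan-TurboID, rest), 0 to 1 (Pan-TurboID, KCl), 9 to 9 (DHPG) and 0 to 0 (knockdown, both states). DHPG over rest gave 4 to 6 in inputs and 5 to 7 in pulldowns. KCl within the knockdown gave 0 to 0 in both fractions. Knockdown over none gave 0 to 1 and 0 to 3 in inputs at rest and after KCl, and 0 to 4 and 0 to 6 in pulldowns. Interactions gave 0, or up to 1 for the KCl effect in pulldowns with and without siRNA, and 5′ UTR counts 0 to 0 in inputs and 0 to 1 in pulldowns. With 1 library left in a group, its spread was taken from the other groups, so counts from such fits do not test the calls. Shares over all genes are not given for fits with a replicate left out, so these counts do not set the members apart from other genes.

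No paired analysis was possible for DHPG over rest and knockdown over none because their libraries share no culture. Of 140 group levels, 40 moved by over 1 SD with TMM scaling, by at most 1.21-fold. Low counts limit Hspa1a and Dnajb1.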

Other observations

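The genes whose log2 group means over the 14 groups were most like the sum of Hspa1a and Hspa1b, among 13659 genes, were Ddx56 (Pearson's r = 0.956), Ddx49 (0.955), Acin1 (0.952), Atp6ap1 (0.952) and Tmem59 (0.950). For Hspa5 they were Zscan18 (0.973), Prelid3a (0.971), Acin1 (0.963), Bcl9 (0.960) and Zfp207 (0.958). The 14 points share experiments and depth, so these are descriptions. No relative or cofactor of the members is among them.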
